A study of Mus musculus with 7 samples.

Results

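The regions described here are the distal H3K27ac peaks that were lower within 12 h of NeuroD1 induction and were still low at 48 h. They numbered 1139 of the 28356 distal peaks with a mean raw count of at least 20, or 4.02%, and 66841 merged peaks were counted in all. They were chosen by their measured values. Each library's count was scaled by its total, and a peak was taken when the lower of its 2 values at 0 h was at least 1.3 times the highest of its 4 values at 12 h and 48 h, and its 12 h mean was below 0.8 times its 0 h mean. A peak was distal when it did not overlap 2 kb on either side of any protein-coding transcription start site (TSS) in mm10. Because the 0 h, 12 h and 48 h values chose these peaks, their loss from 0 h is given below as a description, without a test.

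H3K27ac, the acetylation of histone H3 at lysine 27, was profiled by ChIP-seq. The cells were mouse embryonic stem cells of the A2Lox line and carry a doxycycline-inducible transgene for HA-tagged murine NeuroD1, a neurogenic transcription factor of the bHLH (basic helix-loop-helix) family. The 3 groups were uninduced cells (0 h, no doxycycline) and cells given 500 ng/ml doxycycline for 12 h or for 48 h, each with 2 replicates (R1 and R2). All 6 libraries came from the same transgenic line, first kept on inactivated feeder fibroblasts and then passaged without them on gelatin, in medium with serum and LIF. No library without the transgene was given doxycycline, so the effects of doxycycline, of time in culture and of NeuroD1 cannot be told apart here, and NeuroD1 itself is not measured by these files.

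H3K27ac is laid down by the acetyltransferases p300 and CBP and marks active enhancers and promoters. In mouse embryonic stem cells in LIF, many active enhancers are held by the naive pluripotency factors (such as Nanog, Esrrb and the Krüppel-like factors) and by STAT3, the effector of LIF signalling. When these cells differentiate into neurons, such enhancers lose the mark while neuronal enhancers gain it. Distal peaks can also lie on transposable elements. Young LINE-1 elements of the mouse begin with a promoter made of GC-rich units repeated in tandem, upstream of a long reading frame that encodes the reverse transcriptase.

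Each library held between 6283103 and 8112895 reads in peaks. The members had a median of 45 raw reads per library, against 30.5 over all peaks, and the lowest raw count of any member in any library was 7. The promoter peaks of all 5 embryonic stem cell markers were present, with a summed scaled count of 13882 and 14118 at 0 h, 15439 and 15303 at 12 h, then 9736 and 12020 at 48 h. Only 4 of 14 feeder fibroblast markers had a promoter peak, and their sum was 84.9 and 93.4 at 0 h, 69.7 and 76.4 at 12 h, then 210 in R1 and 96.3 in R2 at 48 h. Among the feeder genes without a promoter peak were Col1a2, Col3a1 and Thy1. Of 7 neuron markers, 6 had a promoter peak and Dcx did not. Nothing in the labels says that the replicates were separate cultures, so the p-values below measure only the spread between these libraries.

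A large share of the members held the same few sequences. When the members were compared with each other by alignment, which was done after their values had been seen, 578 of them fell into 3 groups of near-identical tandem repeats, named here repeat A (304 members), repeat B (147) and repeat C (127). The other 561 members held none of the 3 repeats. 1 unit of each repeat is shown, from GRCm38 (mm10), because these units lie under 578 of the members. Capitals mark E-boxes (CANNTG, the motif that bHLH factors bind) and CCAAT boxes, and strand is the strand shown.
repeat A unit chr1:4560082-4560293 strand +: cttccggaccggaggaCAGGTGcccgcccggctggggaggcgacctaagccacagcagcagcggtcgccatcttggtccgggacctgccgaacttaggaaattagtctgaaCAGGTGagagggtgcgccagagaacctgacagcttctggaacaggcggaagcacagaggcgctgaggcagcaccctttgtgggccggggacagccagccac
repeat B unit chr1:16953307-16953512 strand -: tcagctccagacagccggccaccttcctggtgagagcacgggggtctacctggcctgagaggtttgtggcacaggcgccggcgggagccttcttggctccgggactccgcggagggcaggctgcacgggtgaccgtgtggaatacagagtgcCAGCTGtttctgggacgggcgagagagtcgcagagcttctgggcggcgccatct
repeat C unit chr1:4085254-4085461 strand -: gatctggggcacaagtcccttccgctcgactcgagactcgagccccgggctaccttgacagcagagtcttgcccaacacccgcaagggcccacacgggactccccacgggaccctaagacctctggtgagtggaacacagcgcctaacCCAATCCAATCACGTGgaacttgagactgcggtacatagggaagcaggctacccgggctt

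The unit of repeat A spanned 212 bases, that of repeat B 206 and that of repeat C 208. Within the reference copy of each, neighbouring units were 95.8% (A), 99.3% (B) and 96.9% (C) identical. Across the members, the median identity to the reference copy was 96.5% for A, 98.9% for B and 97.3% for C. Repeat B is shown at 3 loci on different chromosomes over the same 80 bases, with any base that differs from the copy on chromosome 1 in capitals. Each of the other 2 copies differs from it at 1 base.
repeat B reference copy chr1:16953407-16953486 strand -: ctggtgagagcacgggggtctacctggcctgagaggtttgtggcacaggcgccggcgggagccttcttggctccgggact
repeat B copy chr10:16777751-16777830 strand -: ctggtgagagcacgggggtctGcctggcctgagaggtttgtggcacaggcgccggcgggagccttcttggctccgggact
repeat B copy chr13:5177804-5177883 strand -: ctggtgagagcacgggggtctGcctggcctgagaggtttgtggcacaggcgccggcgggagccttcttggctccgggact

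Copies this alike cannot be told apart by most short reads, and how the authors' alignment placed reads that match several copies is not given in the sources used here. Counts at single repeat members are therefore uncertain as to locus, and members that share a repeat are not independent of each other.

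On a fixed side of the repeat, nearly always the same, many of these members had a long open reading frame within 8 kb. A frame of over 1000 codons was present at 221 of 304 repeat A members (72.7%), 127 of 147 repeat B members (86.4%) and 72 of 127 repeat C members (56.7%). Its median length was 1281 codons in each of the 3 groups. The same search found such a frame at 2 of the 561 other members (0.357%) and at 2 of 2000 distal peaks without the repeats (0.1%). No repeat annotation was used, so the repeats were not assigned to a named element.

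The repeat members and the other members lay in different surroundings. The median distance to the nearest protein-coding TSS was 120324 bp for repeat A, 148479 bp for B and 162618 bp for C, against 13259 bp for the other members and 27955 bp for all distal peaks. Of the repeat members 10.6% were on the X chromosome, against 0.357% of the other members and 3.05% of all distal peaks. Repeat members were intergenic in 403 cases (69.7%) and intronic in 149 (25.8%), and none was in a coding exon. The other members were intronic in 282 cases (50.3%), intergenic in 185 (33.0%), in a coding exon in 41 (7.31%) and in an untranslated region in 24. Over all distal peaks 2.72% were in a coding exon.

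Base composition separated the 2 kinds as well. In the 500 bases around the peak centre, median GC content was 63.6%, 67.0% and 62.8% for repeats A, B and C, with 28, 37 and 29 CpG sites. The other members had a median of 53.2% GC and 9 CpG sites, against 49.6% and 7 over all distal peaks. Their median share of soft-masked repeat sequence was 19.2%, against 22.6% over all distal peaks and 100% for each of the 3 repeats.

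The level of the mark in the chosen peaks was as follows. In repeat A members the median scaled count was 75.9 and 87.0 at 0 h, 48.8 and 49.2 at 12 h, then 41.1 and 42.1 at 48 h. In repeat B members it was 61.6 and 63.7, then 31.1 and 29.4, then 34.4 and 31.8. In repeat C members it was 52.3 and 55.2, then 33.2 and 31.3, then 32.2 and 31.0. The median log2 difference of 48 h from 12 h was -0.25 for A, 0.17 for B and -0.11 for C. With a correction for GC content, described further on, these were -0.40, -0.08 and -0.26, so the direction for B turned, and the difference between the repeats was not tested. The other members had medians of 57.5 and 58.4 at 0 h, 33.2 and 32.2 at 12 h, then 31.1 and 32.7 at 48 h, while the median over all distal peaks stayed between 44.4 and 54.7 in every library.

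**Figure D1:**
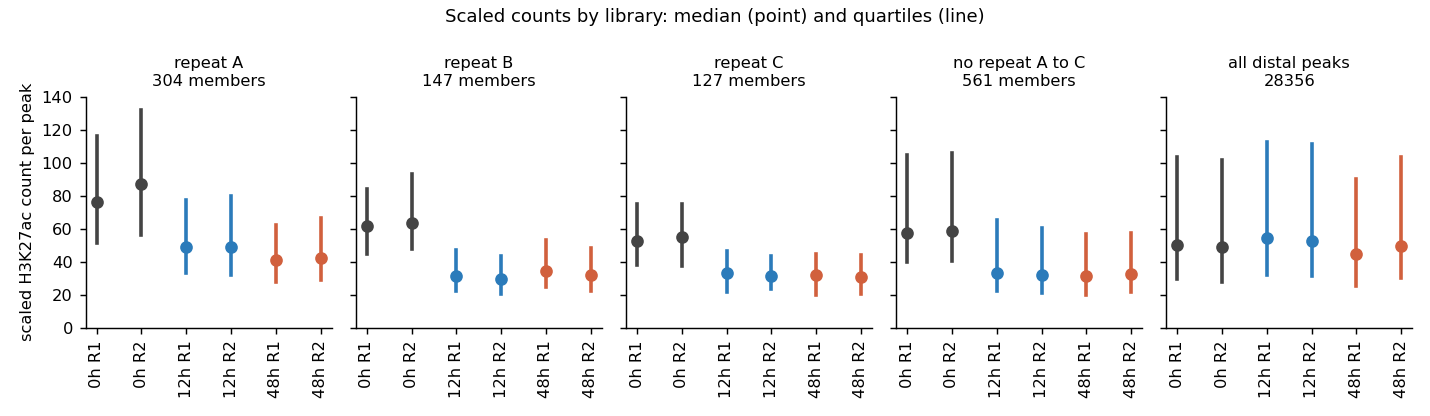
Scaled H3K27ac counts per peak (vertical axis) in each of the 6 libraries (horizontal axis), as the median (point) and the quartiles (line), for members with repeat A, B or C, members without them and all distal peaks with a mean raw count of at least 20. In repeat A members the medians are 75.9 and 87.0 at 0 h but 41.1 and 42.1 by 48 h, a separation that the rule set, while all distal peaks show no such step.

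As log2 fold changes of the edgeR fit, these were medians of -0.68 at 12 h and -0.93 at 48 h for A, -1.09 and -0.90 for B, -0.68 and -0.78 for C, and -0.79 and -0.86 for the other members. Most losses were modest. The ratio of the lower 0 h value to the highest later value reached 1.5 in 311 members and 2 in 13, and 302 members lay between 1.3 and 1.35.

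H3K27ac change followed base composition across all distal peaks, and this trend touched the repeat members most. Among distal peaks that were neither members nor repeats, the median log2 fold change at 12 h was 0.82 below 40% GC, 0.27 at 45 to 50%, -0.39 at 60 to 65% and -0.51 at 65% and over. At 48 h the same medians were 0.19, -0.02, -0.13 and -0.15, a much flatter course. When each library was first corrected for its trend with GC content and the same rule was applied again, 440 of the 1139 members still met it. They were 26 of 304 with repeat A, 62 of 147 with repeat B, 2 of 127 with repeat C and 350 of the other 561 (62.4%). The trend for this correction was fitted over all merged peaks, by the GC content of the whole peak. Promoter peaks and the repeat peaks themselves were included. The correction can therefore take up part of the repeats' own fall, and how much was not tested.

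With that correction the members' median log2 fold changes at 12 h became -0.34 (A), -0.66 (B), -0.30 (C) and -0.70 (others). At 48 h they became -0.73, -0.71, -0.56 and -0.80. The 12 h values of the repeats therefore depended on the correction more than their 48 h values, and those of the other members changed little at either time. Whether the GC trend lies in the chromatin or in the libraries was not tested.

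**Figure D2:**
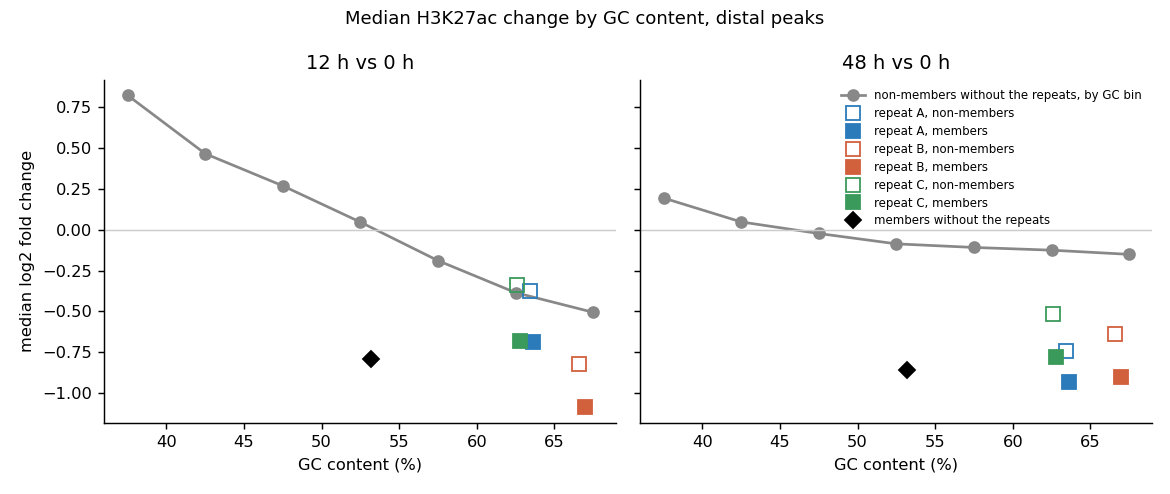
Median log2 fold change of H3K27ac at 12 h (left) and 48 h (right) against median GC content in percent of the 500 bases at the peak centre. Grey points join distal non-members without the repeats in 7 bins of GC content (the end points stand for under 40% and for 65% and over), squares are peaks with repeat A, B or C (filled for members, open for non-members), and the diamond is the other members. At 12 h non-members with repeat A or C lie near the grey line and repeat B below it, and at 48 h all 3 repeats lie below it.

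Many peaks with the same repeats were not taken by the rule. They are described next, and since they are the ones that failed the rule they too were chosen by value, towards a smaller fall. Among distal non-members with a mean raw count of at least 20, repeat A was found in 2151 peaks, repeat B in 68 and repeat C in 1084. The summed scaled count of these repeat A peaks was 168460 and 206955 at 0 h, 146504 and 144327 at 12 h, then 107529 and 118325 at 48 h. That of repeat B was 3467 and 3842, then 2501 and 2279, then 2519 and 2355. That of repeat C was 62938 and 63588, then 52818 and 49365, then 45057 and 45527. In each of the 3, all 4 later libraries were below both 0 h libraries, and the lowest 0 h and highest later repeat A values were closer to each other than the 0 h replicates were. With 2 libraries against 2, an exact two-sided permutation test of a single sum cannot go below p = 0.333. The distal peaks without the repeats went the other way at 12 h, to 125% and 126% of their 0 h mean, and stood at 93.4% and 111% at 48 h.

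Peak by peak, the median log2 fold change of these non-members was -0.38 at 12 h and -0.74 at 48 h for repeat A, -0.82 and -0.64 for B, and -0.34 and -0.51 for C. They leave out the peaks that the rule took, so these medians understate the fall over all copies. In the edgeR quasi-likelihood fit over all peaks (Benjamini-Hochberg adjusted p below 0.05), 886 of the 2151 repeat A peaks were lost at 48 h and 14 at 12 h. Over all distal non-members, 8.35% were lost at 48 h and 1.95% at 12 h, beside 41.2% and 0.651% of the repeat A peaks. The repeat A share at 48 h was above the background in 12 of 13 settings and below it without 0 h R2 (0.0465%). That at 12 h was above it in 3 of the 13, which were the fit of only the 4 libraries compared (20.6%) and leaving out either 48 h library. Repeat B had 23 of 68 lost at 12 h (33.8%) and 4 at 48 h (5.88%). Repeat C had 6 (0.554%) and 79 (7.29%) of 1084. Of these shares only that of repeat B at 12 h was above the background in the fit used here, and in 10 of the 13 settings. It was not above it without 0 h R2, without 12 h R2 or with the GC correction. With that correction 1.47% of the repeat B peaks were lost at 12 h, against 3.23% of all distal non-members. The shares of repeats B and C at 48 h were above the background in 1 of 13 settings each, and that of repeat C at 12 h in 3.

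These counts rested on single libraries. Without 0 h R2 the count of repeat A peaks lost at 48 h was 1, and without 0 h R1 it was 413, without a 12 h library 434 or 438, and without a 48 h library 987 or 1200. The repeat B count at 12 h was 0 without 0 h R2 or without 12 h R2, 8 without 0 h R1, 2 without 12 h R1 and 48 without either 48 h library. The medians were steadier. Over 13 settings (the fit used here, 6 other ways of fitting it, and leaving out each library in turn) that for repeat A at 48 h lay between -0.88 and -0.54, and that for repeat B at 12 h between -0.90 and -0.40, with the GC correction giving the value nearest to 0 in both cases. With that correction the 12 h medians of repeat A and repeat C were -0.01 and 0.06.

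Weaker peaks, with a mean raw count under 20 and so outside the rule whatever their course, were lower as well. Repeat B was present in 107 of them, and all 107 were lower at both times, with medians of -1.09 at 12 h and -0.94 at 48 h. Of these, 15 were called lost at 12 h and 11 at 48 h, against 1.06% and 1.15% of all 22011 weak distal peaks. These were calls of edgeR, and DESeq2 called 0 of the 107 at either time. The share of all weak distal peaks called lost also moved with the setting, down to 0% at 12 h and 0.0227% at 48 h. With the GC correction 3 of the 107 (2.80%) were called lost at 12 h and 10 (9.35%) at 48 h. That compares with 1.43% and 2.14% of all weak distal peaks. Repeat A was present in 537 weak peaks, with medians of -0.47 and -0.65, and repeat C in 464, with medians of -0.39 and -0.61. The GC correction moved the 12 h medians of these weak peaks to -0.68 for B, -0.11 for A and -0.0008 for C, and their 48 h medians to -0.78, -0.44 and -0.40.

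**Figure D3:**
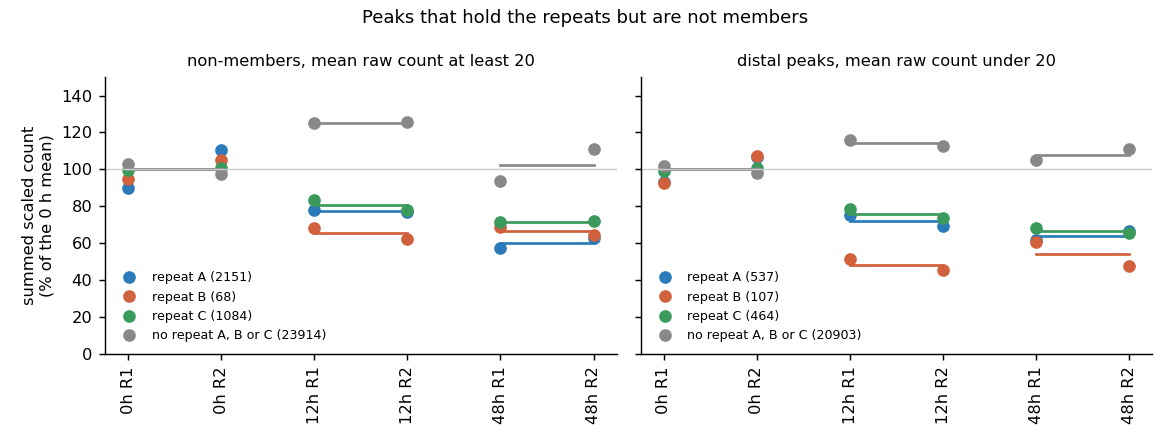
Summed scaled H3K27ac count in percent of the mean of the 0 h libraries (vertical axis) in each library (point) with the mean per time point (line), for peaks that hold the repeats but are not members. The left panel shows distal peaks with a mean raw count of at least 20 and the right panel weaker ones. Repeats A, B and C lie below 100% in all 4 later libraries, whereas peaks without the repeats lie above it at 12 h.

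Read over all eligible distal peaks, repeat B was taken by the rule far more often than the other 2. Of the 215 eligible peaks with repeat B 68.4% were members, against 12.4% of 2455 with repeat A and 10.5% of 1211 with repeat C. Among the 10 members with the highest ratio of 0 h to later values, 6 held repeat B and 1 held repeat A. The highest of them, nearest to Rxfp1, had scaled counts of 68.8 and 57.3 at 0 h, 18.2 and 22.1 at 12 h, then 18.9 and 22.4 at 48 h. A repeat B member nearest to Shh had 39.0 and 45.6, then 15.0 and 13.8, then 17.8 and 15.5. In both, the 0 h and later libraries were further apart than the replicates. The rule and the choice by ratio set that gap, so it is no evidence of a loss. Genes are named here by distance to their TSS only, and nothing in these files links a peak to a gene.

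The members without the repeats included the strongest peaks. The 10 members with the highest 0 h level all belonged to this group, with mean scaled counts at 0 h from 529.5 (Myrf) to 918 (Nfic). The highest, in an intron of Nfic (a nuclear factor I gene), had scaled counts of 891 and 945 at 0 h, 663 and 624 at 12 h, then 655 and 584 at 48 h. The one nearest to Fasn (fatty acid synthase) lost more, from 608 and 585 to 285 and 289 and then 279 and 334. Its log2 fold change at 12 h was -1.05, a description only, since the rule used these values. One in an intron of Kank2, a regulator of the actin cytoskeleton, went from 643 and 702 to 426 and 384 and then 346 and 420. In all 3 the groups were well apart at 0 h, as the rule demands, and the 12 h and 48 h values overlapped. After the GC correction 5 of these 10 no longer met the rule (Nfic, Sulf2, Grasp, Atg101 and Myrf), and the 12 h log2 fold change of the Nfic member went from -0.51 to -0.18.

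The member with the highest ratio of 0 h to later values was in an intron of Kcnk3, which encodes a potassium leak channel. It had scaled counts of 38.0 and 40.3 at 0 h, 10.7 and 12.0 at 12 h, then 13.3 and 12.0 at 48 h, so that 29.0% of the 0 h mean was left at 12 h and 32.4% at 48 h. Pml (the scaffold of PML nuclear bodies) and Scarb1 (a receptor for high-density lipoprotein) each had an intronic member among the 10 with the highest ratio. The Pml member went from 54.4 and 62.6 to 20.4 and 23.9 and then 24.4 and 24.9. The Scarb1 member went from 34.9 and 40.3 to 16.1 and 12.9 and then 12.2 and 13.8. These are low counts, and the standard error of the Kcnk3 fold at 12 h was 0.37 on the log2 scale. That error shows how imprecise the fold is and does not test it, since the peak was picked for its ratio.

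The central 200 bases of 3 members without the repeats are shown, from GRCm38, to set beside the units above. They are the one with the highest ratio (Kcnk3, in an intron), the one nearest to Pim1 (in a non-coding gene) and the one nearest to Nanog (intergenic). Capitals mark matches to a Krüppel-like factor motif (CCNCACCC, in Kcnk3) and to the E-box CACCTG (in Pim1), searched on both strands. The Nanog window held no match to either motif.
Kcnk3 member chr5:30614705-30614904 strand +: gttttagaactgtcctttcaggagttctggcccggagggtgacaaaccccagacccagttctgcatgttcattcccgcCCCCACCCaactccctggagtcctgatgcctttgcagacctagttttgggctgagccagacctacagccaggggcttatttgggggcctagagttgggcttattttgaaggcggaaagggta
Pim1 member chr17:29455480-29455679 strand +: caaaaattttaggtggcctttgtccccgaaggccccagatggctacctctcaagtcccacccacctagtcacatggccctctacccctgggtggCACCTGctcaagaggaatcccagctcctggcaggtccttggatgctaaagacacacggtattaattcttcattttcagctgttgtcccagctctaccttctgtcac
Nanog member chr6:122699168-122699367 strand +: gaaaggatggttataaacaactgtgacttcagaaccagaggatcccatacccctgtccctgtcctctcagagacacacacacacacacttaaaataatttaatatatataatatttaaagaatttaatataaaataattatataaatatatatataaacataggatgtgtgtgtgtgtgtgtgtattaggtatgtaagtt

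The GC content of these windows was 55.0% for Kcnk3, 53.0% for Pim1 and 30.0% for Nanog, with 3, 2 and 0 CpG sites. None resembles the repeat units, which fall in the range of 62.8% to 67.0% by their median.

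Motif matches differed between members without the repeats and distal non-members without the repeats. The Krüppel-like factor motif CCNCACCC, in either orientation, was in 36.9% of these members against 23.0% of the non-members and 20.2% of all distal peaks, over the same 500 bases. The E-box CACCTG was in 44.2% against 34.8%. The GATA motif AGATAA was in 14.3% of members against 22.1%. Median GC content was 53.2% against 48.2%, and its part in these differences was not tested. The E-box CAGATG was in 32.8% against 33.8%, and the OCT-SOX composite TTGTNATGC in 0.891% against 1.80%. In the repeats the matches followed the shared unit, with CACCTG in 100% of repeat A members, CAGCTG in 63.3% of repeat B members and CCAAT in 100% of repeat C members. The Krüppel-like factor motif was in 0 of the 578 repeat members over these 500 bases. Searched over whole peaks, it was in 59.9% of the other members against 43.1% of the non-members. A match is a description of letters and not of binding.

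Several members lay nearest to genes of naive pluripotency and of signalling pathways. Of 130 genes on 8 lists, 17 (13.1%) were the nearest gene of a member, against 1003 of 21840 genes (4.59%) in all. These lists were chosen with earlier results of these data known, and genes in regions rich in peaks have more chances to be nearest, so the share is a description. The naive pluripotency list had 6 of 34 genes with 7 members, all without the repeats. LIF and STAT3 signalling had 3 of 10, and Nodal and activin, FGF and ERK feedback, and BMP and Id had 1 each. None of 12 formative or primed pluripotency genes was nearest to a member. Of 23 neuronal induction genes 4 were, 3 of them through a repeat member, and of 14 feeder genes 1 was, Twist1, also through a repeat.

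Nanog, a core factor of the naive network, had its member 8.22 kb from the TSS (chr6:122697871-122700665). Its scaled counts were 212 and 207 at 0 h, 136 and 151 at 12 h, then 119 and 118 at 48 h. That left 68.4% of the 0 h mean at 12 h and 56.4% at 48 h, and the 48 h libraries lay below the 12 h ones. Klf5, a Krüppel-like factor of the same network, was nearest to 2 members. The one over its coding exon (chr14:99312894-99313753) had 53.4 and 92.3 at 0 h, 38.6 and 38.6 at 12 h, then 37.8 and 40.4 at 48 h, with a wide spread between the 0 h replicates. The one 88.5 kb away had 42.1 and 53.1, then 29.0 and 25.8, then 26.7 and 22.4.

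Tcl1, a coactivator of the kinase Akt, had a member with 44.1 and 42.5 at 0 h, 32.2 and 30.4 at 12 h, then 19.99 and 23.2 at 48 h. Its 12 h libraries lay between the other time points. Dppa2, a chromatin-associated pluripotency gene, had an intronic member with 70.8 and 84.9, then 47.2 and 41.4, then 52.2 and 51.6. The members nearest to Zscan10, a zinc finger gene of embryonic stem cells, and Pecam1, an adhesion molecule on their surface, kept 44.6% and 55.9% of the 0 h mean at 12 h and 50.4% and 59.8% at 48 h. The Zscan10 member was the weakest of the list, at 26.7 and 39.3 at 0 h.

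In the LIF pathway, the kinases Pim1 and Pim3 and the feedback inhibitor Socs3 are known targets of STAT3. The Pim1 member, 35.2 kb from the TSS, had 79.0 and 71.1 at 0 h, 44.0 and 43.2 at 12 h, then 43.3 and 39.6 at 48 h. The Pim3 member had 144 and 181, then 79.3 and 63.5, then 105 and 98.9, with its lowest values at 12 h. The Socs3 member had 56.4 and 59.4, then 40.7 and 40.5, then 31.1 and 29.2, with its lowest values at 48 h. None of the 3 passed the test of 48 h against 12 h (adjusted p = 0.88, 0.14 and 0.33 in the edgeR fit for Pim1, Pim3 and Socs3).

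Acvr1b, a receptor for activin and Nodal, had a member with 144 and 142 at 0 h, 98.6 and 69.0 at 12 h, then 40.0 and 68.8 at 48 h, with replicates far apart at both later times. Smad6, an inhibitor of BMP signalling, had 33.9 and 38.2, then 20.4 and 19.3, then 17.8 and 19.8. Spry4, a feedback inhibitor of receptor tyrosine kinase signalling, had 142 and 135, then 72.9 and 58.9, then 94.4 and 92.9. The neuronal list was represented without a repeat only by Tcf4, a bHLH E-protein, whose member had 39.0 and 34.0, then 23.6 and 23.0, then 16.7 and 17.2. Map2 and Sox11 were nearest to a repeat B member and Sox4 to a repeat A member.

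Of the 18 members nearest to list genes, 9 with the GC correction still met the rule. Of the naive list 3 of 7 did (Nanog, Pecam1 and Tcl1), and of LIF and STAT3 only the Pim1 member did. Both Klf5 members, Dppa2, Zscan10, Pim3, Socs3 and Acvr1b no longer met it, nor did the repeat members nearest to Sox4 and Twist1. The corrected 12 h change of Socs3 was -0.17 in place of -0.51, whereas that of Pim3 was -0.90 and that of Dppa2 -0.98.

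**Figure D4:**
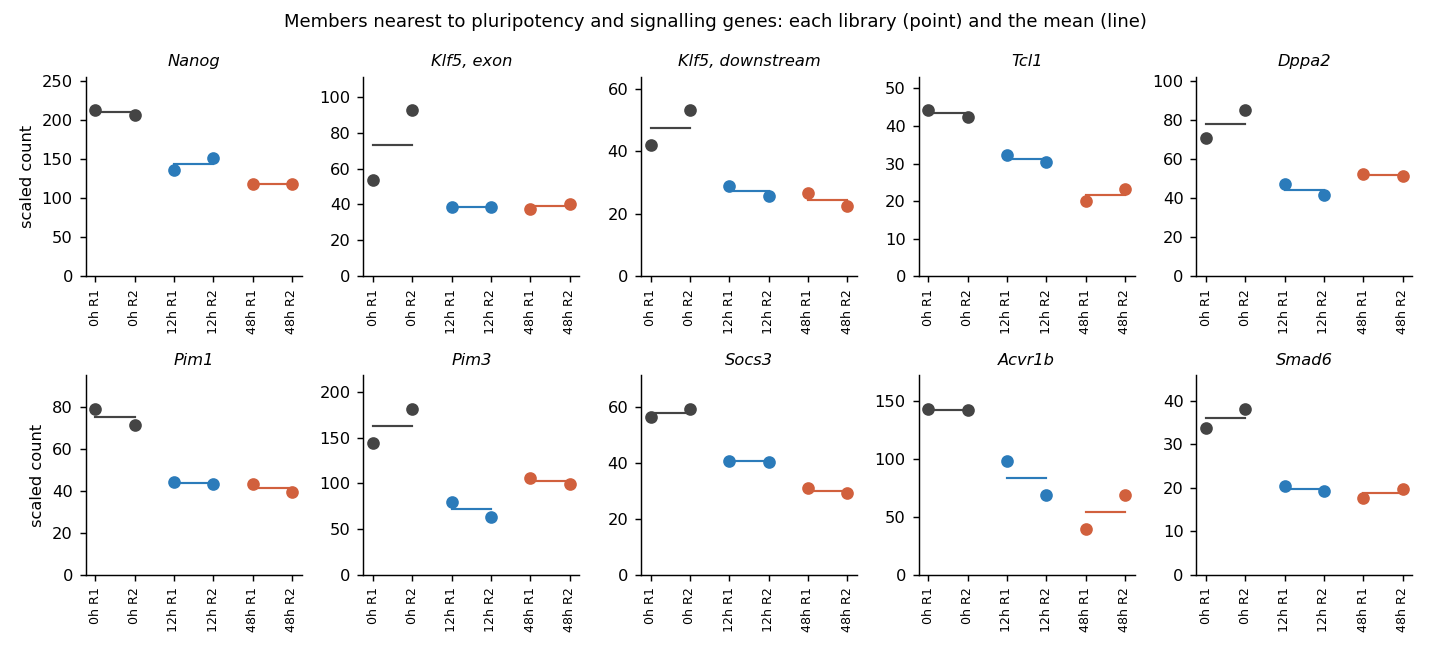
Scaled H3K27ac counts (vertical axis, from 0, a scale of its own in each panel) in the 6 libraries (points, with the mean per time point as a line) for 10 members nearest to pluripotency and signalling genes. All later points lie below both 0 h points, which the rule required. The 48 h points of Tcl1, Socs3, Nanog and Acvr1b lie below those of 12 h, and those of Pim3 and Dppa2 above. None of these differences passed the edgeR test (adjusted p = 0.28, 0.33, 0.37, 0.14, 0.14 and 0.59, in that order).

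Members were spread over many loci. They had 1003 different nearest genes, 885 of which had 1 member only, and 100 members had another member within 10 kb. Ctu2, Glt1d1, Phf3 and Tha1 had 4 members each. The 4 nearest to Ctu2, a tRNA-modifying enzyme, lay in introns of another gene, Gm20388. The 4 nearest to Tha1 were intergenic, and none of these 8 held a repeat. Among the Tha1 members the highest had 204 and 197 at 0 h, 127 and 135 at 12 h, then 128 and 119 at 48 h. The Phf3 members all held repeat B or C. Ano6, Ephb2, Gpr37l1, Kank2, Pcdh9, Slc39a10 and Slc6a6 had 3 members each. So did Bhlhe40, a bHLH repressor, Tfap2c, an AP-2 factor, and Tgif1, a homeobox corepressor.

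The threshold cut through a continuum. The 3 members just inside it were nearest to Gm7361, She and Ensa, with ratios from 1.3 to 1.3001. The 3 peaks just outside it were nearest to Yjefn3, Gja3 and Chst9, with ratios of 1.2999, 1.2998 and 1.2995. In the interval from 1.25 to 1.3 there were 401 eligible peaks, more than the 302 members between 1.3 and 1.35. The opposite order, with both 0 h values below all later ones by the same factors, was met by 2293 distal peaks, and 230 promoter peaks met the members' own order.

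The rule treated 12 h and 48 h alike, but it capped the values at both times. A peak that was high at either time could not be a member, so a low share of calls among members is partly set by the rule. The eligible distal peaks as a whole carry no such cap, and their shares are given only for scale. In the edgeR fit 8 of the 1139 members (0.702%) were lower at 48 h than at 12 h and 1 (0.0878%) was higher, against 15.4% lower and 6.16% higher among all eligible distal peaks. At an unadjusted p below 0.05 the counts were 55 and 9, against 7228 and 2928 of the 28356 eligible distal peaks. DESeq2 called 4 members lower and 1 higher. The GC correction gave 71 members lower (6.23%) and 4 higher, against 5440 and 2784 of the 28356. The 48 h mean was below the 12 h mean in 707 members, in 269 of 304 with repeat A but in only 28 of 147 with repeat B. The counts of called members moved with single libraries. Those called lower were 4 without either 0 h library, 1 without 12 h R1, 0 without 12 h R2, 18 without 48 h R1 and 55 without 48 h R2. Those called higher were 0 without either 12 h library, 3 without 48 h R1 and 7 without 48 h R2. A missing call does not show that the level was the same at both times.

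The members that did change after 12 h included 2 strong ones. That nearest to Prdm1, which encodes a transcriptional repressor (Blimp1), had 480 and 423 at 0 h, 321 and 300 at 12 h, then 163 and 188 at 48 h. Its log2 fold change from 12 h to 48 h was -0.82 ± 0.18 (SE, adjusted p = 0.0042, edgeR). That nearest to Ets2, an ETS transcription factor, had 200 and 194, then 106 and 132, then 54.4 and 55.9, with a change of -1.11 ± 0.24 (adjusted p = 0.0029, edgeR). Both therefore fell in steps, with the 3 time points apart in every library. The strongest of the called members, nearest to Grasp, had 591 and 615, then 381 and 383, then 230 and 270. The only one called higher lay in a coding exon of Prr12, with 64.7 and 66.9, then 23.6 and 16.6, then 46.6 and 42.1, a rise of 1.15 ± 0.32 (adjusted p = 0.016, edgeR), so that it had regained part of its 0 h level.

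Promoter peaks were never members, so their changes were not used by the rule, although they come from the same libraries and can be parts of the same acetylated domain. Of the 432 promoter peaks of genes nearest to members without the repeats, 25 had such a member within 1 kb and 208 within 10 kb. The Nanog member ended 139 bp from its promoter peak and the Dppa2 member began 44 bp from its own. Of the 1003 nearest genes, 669 different promoter peaks could be tested. For genes nearest to members without the repeats, 132 of 432 promoter peaks (30.6%) were lost at 12 h and 2 gained, against 17.0% lost and 2.4% gained over all 16416 promoter peaks. At 48 h, 49 (11.3%) were lost and 9 gained, against 2.88% and 4.87% of all. Promoters lost at both times were 20 of 432 (4.63%), against 127 of all (0.774%). With the GC correction they were 16 (3.70%), against 121 of all (0.737%).

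Genes nearest to repeat members did not share this. Of their 240 promoter peaks 29 (12.1%) were lost and 7 gained at 12 h, and 6 (2.5%) were lost and 29 (12.1%) gained at 48 h. The 2 sets of promoters differ in more than the repeats, as the members lie 13259 bp and 139657 bp from the TSS by the median, and the difference between the sets was not tested. The median promoter change was -0.44 at 12 h and -0.15 at 48 h near members without the repeats, -0.34 and 0.18 near repeat members, and -0.38 and 0.06 over all promoter peaks.

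The counts again moved with single libraries, and the comparison with the background less so. Over all 669 peaks 160 were lost at 12 h, and this was 49 and 6 without 0 h R1 and R2, 19 and 8 without 12 h R1 and R2, and 348 and 347 without 48 h R1 and R2. At 48 h 54 were lost, and this was 22, 5, 28, 28, 149 and 86 in the same order. In all 13 settings, leaving out each library included, the share lost near members without the repeats was above that of all promoter peaks at both times, and the share gained was below it.

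**Figure D5:**
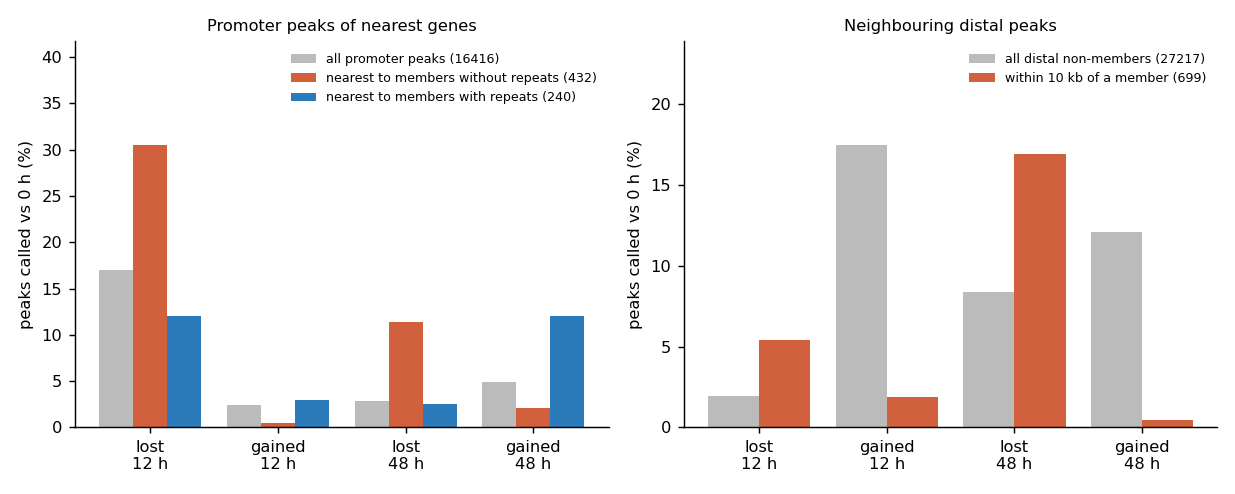
Share of peaks in percent (vertical axis) called lost or gained against 0 h by edgeR at 12 h and 48 h. The left panel shows promoter peaks of all genes (grey), of genes nearest to members without the repeats (orange) and of genes nearest to repeat members (blue), and the right panel distal non-members (grey) and those within 10 kb of a member (orange). Lost promoter peaks near members without the repeats reach 30.6% at 12 h against 17.0% of all.

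Among the 20 promoters lost at both times near members without the repeats were those of Klf5, Pim1 and Pim3, together with Bhlhe40, Kank2, Ccne1 (cyclin E), Piezo1 (a mechanosensitive channel), Trim71 and Zbtb7a. With the GC correction 10 of the 20 lost their 12 h call, those of Pim3, Ccne1, Piezo1 and Zbtb7a among them (adjusted p = 0.46, 0.34, 0.15 and 0.073, edgeR). The Klf5 promoter peak had 449 and 634 at 0 h, 337 and 311 at 12 h, then 283 and 301 at 48 h. Its changes were -0.74 ± 0.18 and -0.89 ± 0.18 (SE, adjusted p = 0.0079 and 0.0018, edgeR), with adjusted p = 0.28 and 0.17 without 0 h R2, and 0.086 and 0.17 at 12 h without 12 h R1 and R2. The Pim1 promoter peak had 999 and 1040, then 605 and 650, then 635 and 522, with changes of -0.70 ± 0.16 and -0.82 ± 0.16 (adjusted p = 0.0037 and 0.00082, edgeR). All of its later libraries lay far below the 0 h ones. Its 12 h adjusted p was 0.051 to 0.11 without any 1 of the 0 h or 12 h libraries, and its 48 h adjusted p was 0.054 without 0 h R2. The Pim3 promoter fell less, by 0.48 ± 0.14 and 0.43 ± 0.14 on the log2 scale, and lost its call in most alternatives.

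The promoters of the other naive genes with a member were not called at 12 h in the edgeR fit. The Nanog promoter peak had 1991 and 1867 at 0 h, 1577 and 1598 at 12 h, then 1236 and 1461 at 48 h. Its change was -0.28 ± 0.14 at 12 h (adjusted p = 0.17, edgeR) and -0.52 ± 0.14 at 48 h (adjusted p = 0.014, edgeR), and the 48 h call was lost without any 1 of the 0 h or 12 h libraries (adjusted p = 0.058 to 0.16). With the GC correction the Nanog promoter was called at 12 h as well (-0.48, adjusted p = 0.0021, edgeR), and its difference between 48 h and 12 h did not pass the test (-0.24, adjusted p = 0.24, edgeR). The Tcl1 promoter fell at 48 h by 1.00 ± 0.21 on the log2 scale (adjusted p = 0.0018, edgeR), a call kept in all settings, and its 12 h change was -0.31 ± 0.20 (adjusted p = 0.30). The Dppa2 promoter fell at 48 h by 0.52 ± 0.15 (adjusted p = 0.025, edgeR), a call lost without either 0 h or 12 h library (0.078 to 0.24). Those of Zscan10 and Pecam1 did not pass the test at either time. In the naive list as a whole, 4 of 33 promoter peaks were lost at 12 h and 12 at 48 h, and none was gained. These are 12.1% and 36.4%, against 17.0% and 2.88% of all promoter peaks, so only the 48 h share was above the background. The Socs3 promoter peak had 2894 and 2816, then 3552 and 3279, then 3443 and 3061. Its later libraries thus lay above the 0 h ones, unlike those of its member. Its difference of 0.26 ± 0.13 at 12 h did not pass the test (adjusted p = 0.16, edgeR). With the GC correction it was called higher at 12 h (0.42, adjusted p = 0.0049, edgeR), while its member no longer met the rule.

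Distal peaks close to members were also less acetylated later. Of 699 non-members within 10 kb of a member, 38 (5.44%) were lost and 13 (1.86%) gained at 12 h, whereas 1.95% of all distal non-members were lost and 17.5% gained. At 48 h 118 (16.9%) were lost and 3 (0.429%) gained, against 8.35% and 12.1%. The median log2 fold change was -0.23 at 12 h and -0.45 at 48 h, against 0.10 and -0.11 over all distal non-members. Nearly all of these neighbours, 663 of 699, lay near members without the repeats. The 18 neighbours without a repeat that lay near a repeat member had 0 lost and 7 gained at 12 h, with a median of 0.75. Neighbours can be parts of the same acetylated domain as the member, and a peak that just missed the threshold also counts as a neighbour.

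The count of 38 was 3 and 1 without 0 h R1 and R2, 2 and 1 without 12 h R1 and R2, and 140 and 141 without 48 h R1 and R2. The count of 118 was 37, 18, 62, 62, 141 and 238 in the same order. The share lost was above, and the share gained below, that of all distal non-members in each of the 13 settings at both times. Within 50 kb the shares lost were lower, with 103 (4.32%) of 2384 lost at 12 h and 326 (13.7%) at 48 h.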

How the data were processed

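The authors used Bowtie2 (local mode, mm10) for alignment, SAMtools 0.1.19 for sorting and MACS2 for peaks over the Input library, then took the union of the peaks and counted its reads with QuasR. How reads that match several copies of a repeat were placed is not given in the sources used here. FastQC and these tools are named per the labels or the study's methods. The deposited values are raw read counts per merged peak, not normalised, in 6 libraries with totals from 6283103 to 8112895. The Input library was not used here.

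Counts were divided by the library total and multiplied by the mean total. Peaks were annotated with GENCODE M21 and the GRCm38.p6 sequence. Changes were tested with edgeR 4.0.16 in R 4.3.3 (quasi-likelihood test) over all 66841 peaks, with the time point as the only term, library totals as offset and Benjamini-Hochberg adjustment over all peaks at 0.05, and "lost" and "gained" are calls of that test. With 2 libraries per time point the fit has few degrees of freedom. DESeq2 1.42.0, TMM factors, a low-count filter, the replicate number as a block, fits of only the 4 libraries compared, a per-library lowess correction for GC content (span 0.3) and leaving out each library were alternatives. The scripts were tested on simulated data. Repeats were found with BLAST+ 2.17.0 (at least 80% identity over at least 150 bases, e-value 1e-10), in a step added after the data were seen.

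Members and gene lists were chosen with earlier results of these data known. Named were the 10 members highest at 0 h, the 10 with the highest ratio, those nearest to list genes (up to 4 per gene), those of the 5 genes with the most members, 3 on either side of the threshold, and up to 5 falling and 5 rising from 12 h to 48 h among those called. Most genes with 3 members, Bhlhe40, Tfap2c and Tgif1 among them, and the promoters lost at both times were named after their values were seen. The median of 45 reads per library in a member leaves a large counting error at single peaks.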

Additional observations from a re-analysis of the deposited data

Results flagged for a closer look

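Some results changed course between 12 h and 48 h by the edgeR quasi-likelihood test of that difference, with Benjamini-Hochberg adjustment over all peaks. Among the members, whose values at both times the rule had capped, 8 were lower and 1 was higher at 48 h. The named ones, with log2 fold changes from 12 h to 48 h, were nearest to Grasp (-0.61), Ceacam16 (-1.22), Ets2 (-1.11), Sorcs3 (-0.84), Prdm1 (-0.82) and Sh3yl1 (-0.78), and to Prr12 (1.15). Those of Sorcs3 and Sh3yl1 held repeat A.

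Promoter peaks of list genes nearest to a member also differed between the 2 later times. That of Acvr1b was higher at 48 h than at 12 h by 0.89 on the log2 scale, and those of Sox11, Sox4, Tcf4 and Twist1 were higher by 1.53, 0.74, 0.57 and 1.10. Those of Dppa2 and Tcl1 had log2 fold changes of -0.49 and -0.69. The 48 h replicates were far apart in 3 of these, with scaled counts of 1176 and 682 for Sox11, 248 and 142 for Acvr1b and 143 and 60.2 for Twist1.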

How the results depend on the processing

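For promoter peaks of list genes nearest to a member, no change called in the fit used here or in the alternative turned its direction. Changes called in neither were not checked for a turn. The size of the counts depended on the setting, and mostly on single libraries. The rule took 751 peaks with TMM factors, 679 with the GC correction, 2088 with a fold of 1.2, 311 with a fold of 1.5, 506 with a mean raw count of at least 50, and 1394 to 3060 when a library was left out, which relaxes it. Repeats were found in 50.6% of the peaks taken with TMM factors and in 13.4% of those taken with the GC correction.

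Of the members, those lower at 48 h than at 12 h were 4 with DESeq2, 3 in the fit of the 4 libraries compared and 71 with the GC correction, and those higher were 4 with that correction. Leaving out 1 library gave 0 to 55 lower and 0 to 7 higher. Of the promoter peaks of nearest genes, those lost at 12 h were 69 with DESeq2 and 345 with 4 libraries, and those gained at 12 h 14 with TMM factors, 23 with 4 libraries, 15 with the GC correction, 5 with genes within 100 kb only and 2 without the repeat members. Those lost at 48 h were 23 with DESeq2 and 28 with 4 libraries, and those gained 24 with DESeq2, 83 with the GC correction, 20 within 100 kb and 9 without the repeat members. Leaving out 1 library gave 6 to 348 lost and 3 to 23 gained at 12 h, and 5 to 149 lost and 8 to 133 gained at 48 h.

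Of the neighbour peaks, those lost at 12 h were 6 with DESeq2, 141 with 4 libraries, 75 with the GC correction and 103 within 50 kb, and those gained 34 with 4 libraries and 117 within 50 kb. Those lost at 48 h were 51 with DESeq2, 63 with 4 libraries, 188 with the GC correction and 326 within 50 kb, and those gained 6 with TMM factors, 10 with the GC correction and 76 within 50 kb. Leaving out 1 library gave 1 to 141 lost and 3 to 34 gained at 12 h, and 18 to 238 lost and 0 to 14 gained at 48 h.

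Of the repeat peaks outside the rule, lost at 12 h were for repeat A 7 with TMM factors, 3 with DESeq2, 444 with 4 libraries and 4 with the GC correction, for repeat B 1 with DESeq2, 48 with 4 libraries and 1 with the GC correction, and for repeat C 2, 0, 93 and 0 in the order given for A. Lost at 48 h were for A 169 with DESeq2 and 446 with 4 libraries, for B 2 with TMM factors, 0 with DESeq2 and 1 with 4 libraries, and for C 38 with TMM factors, 1 with DESeq2, 15 with 4 libraries and 43 with the GC correction. Leaving out 1 library gave at 12 h 1 to 429 (A), 0 to 48 (B) and 0 to 93 (C), and at 48 h 1 to 1200, 0 to 23 and 1 to 165. The alternatives on the repeats were chosen after seeing the data. At 90% identity in place of 80%, 248, 147 and 126 members kept repeats A, B and C.

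Over whole peaks in place of 500 bases, the Krüppel-like factor motif was in 59.9% and the E-box CACCTG in 67.0% of members without the repeats. Distal non-members without the repeats had 43.1% and 61.3%. The cause of these shifts was not tested. The counts of called peaks mostly fell without either 0 h or either 12 h library and mostly rose without either 48 h library. The replicate numbers did not pair the libraries, since deviations from the group means correlated at -0.04 (0 h and 12 h), -0.09 (0 h and 48 h) and 0.11 (12 h and 48 h). With the replicate block 5 neighbour peaks were gained at 48 h in place of 3, the Pim3 promoter had an adjusted p of 0.062 at 48 h and that of Sox11 one of 0.038 at 12 h, both by edgeR, and no other reported count moved by over 1.5 times and no other named promoter changed its call. With 2 libraries per time point and a median of 45 reads per member, losses near the threshold of 1.3 cannot be resolved peak by peak.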
